A study of Mus musculus with 2 samples.

Results

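The laminin chains are the subunits of the trimeric laminins of the basement membrane, and 9 of their genes (Lama1, Lama2, Lama3, Lama4, Lama5, Lamb1, Lamb2, Lamb3 and Lamc1) were followed across the cells of mouse omental tumors. The genes were taken by symbol, and each of the 9 was found once among the 32285 genes counted. The tumors grew in C57BL/6J mice from KPCA cells, a line of mouse fallopian tube epithelium with mutant Trp53 and overexpressed Ccne1 and Akt2 that serves as a model of high-grade serous ovarian cancer. In both groups the cancer cells lacked Fst, the gene of follistatin, by deletion. The KPCA.FSTKO group had no further change. The KPCA.FSTKO_hFSTL3 group was a stable clone of that line with a human FSTL3 transgene, whose transcript is not a row of the mouse gene table. The clone was chosen in geneticin by its FSTL3 secretion, so clone and selection cannot be told apart from the transgene. In each group 4 omental tumors were pooled at day 10 after grafting, digested and sequenced as 1 droplet library per group, so there is no replicate within a group and no difference between the libraries was tested. All intervals are 95% intervals and cover counting error only.

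Each laminin joins an alpha, a beta and a gamma chain in a coiled coil, and the chain numbers name the trimer, so that laminin 511 holds the products of Lama5, Lamb1 and Lamc1. Beta and gamma chains pair inside the cell and need an alpha chain for the trimer to be secreted, and the alpha chain carries the main sites that integrins and dystroglycan bind. Vessels are known for laminins 411 and 511, muscle and mesenchymal cells for laminin 211, and most adult epithelia for laminin 511, and the products of Lama3 and Lamb3 are known from stratified epithelia. The values below are of transcripts, and a barcode with transcripts of all 3 kinds of chain is not evidence of an assembled trimer.

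Levels are unique molecular identifiers (UMIs) of a chain as counts per 1e6 UMIs of the summed barcodes (CPM). A UMI stands for 1 captured RNA molecule, and chains were compared with each other on this scale without division by gene length. Whether intronic reads were also counted is not settled by the sources used here. Their part in comparisons between chains of unlike gene length was not tested. The KPCA.FSTKO library held 7582 barcodes and 168214773 UMIs, and the KPCA.FSTKO_hFSTL3 library 4244 barcodes and 80391504 UMIs, with 12 barcodes in common. A barcode was placed in a class when at least 5 of the 8 markers of that class had a UMI and each unrelated class had at most 3, and no laminin gene was a marker. This placed 4563 of 6777 filtered barcodes (67.3%) of KPCA.FSTKO but only 483 of 4041 (11.95%) of KPCA.FSTKO_hFSTL3. In the latter library 2678 barcodes (66.3%) carried markers of several unrelated classes, against 659 (9.72%) in KPCA.FSTKO. That library also had a haemoglobin UMI in 82.9% of filtered barcodes (23.7% in KPCA.FSTKO), a median mitochondrial share of 10.7% (3.71%) and a median of 0.812% of UMIs from pancreatic acinar genes (0). The classes carried their own markers, with a median of 7 of 8 in cancer-like barcodes (the next class had 2), 6 in fibroblast-like ones (3) and 7 in endothelial-like ones (1). At the edge of the gate, 478 cancer-like barcodes of KPCA.FSTKO had just 5 cancer markers. Among all filtered barcodes, of any class or none, 501 had 4. These numbers were 82 and 318 for KPCA.FSTKO_hFSTL3. For the fibroblast markers they were 66 and 363 in KPCA.FSTKO (156 barcodes in the class) and 5 and 985 in KPCA.FSTKO_hFSTL3 (22 in the class). The part of the markers of several classes, haemoglobin, mitochondrial and acinar RNA in the differences between the libraries was not tested, and the account of each class therefore leads with KPCA.FSTKO. Fst had 507 UMIs in 340 of 3312 cancer-like barcodes of KPCA.FSTKO and 65 UMIs in 40 of 266 of KPCA.FSTKO_hFSTL3. Where in the gene the deletion lies is not given in the sources used here, so UMI counts do not check it.

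The cancer-like barcodes (3312 in KPCA.FSTKO, 266 in KPCA.FSTKO_hFSTL3) carried the 3 chains of laminin 511 and little of any other alpha chain, at nearly equal levels in KPCA.FSTKO and with Lama5 below the other 2 in KPCA.FSTKO_hFSTL3. Lama5, the main alpha chain of epithelial basement membranes (chr2:180176373-180225859 of GRCm38, minus strand), stood at 123 CPM (12303 UMIs, interval 121 to 125) in KPCA.FSTKO, and in KPCA.FSTKO_hFSTL3 it stood at 61.1 CPM (527 UMIs, 56.0 to 66.5). Lamb1, the most widely used beta chain (chr12:31265234-31329644, plus strand), stood at 112 CPM (11211 UMIs, 109.9 to 114) and 104 CPM (899 UMIs, 97.5 to 111). Lamc1, the gamma chain of nearly all laminins (chr1:153218922-153332786, minus strand), stood at 107 CPM (10682 UMIs, 105 to 109) and 89.0 CPM (768 UMIs, 82.85 to 95.6). The UMI ratio of Lamc1 to Lama5 was thus 0.868 (0.846 to 0.891) in the former library and 1.46 (1.30 to 1.63) in the latter. Lama5 made up 96.9% (96.6 to 97.2) of all alpha chain UMIs of the class in KPCA.FSTKO and 97.4% in KPCA.FSTKO_hFSTL3. On the beta side Lamb1 held 88.8% and Lamb2 10.0% of the UMIs in KPCA.FSTKO. The pattern was that of most barcodes rather than of a few. Lama5 led the alpha chains in 2758 of the 3312 barcodes, 479 had no alpha chain UMI, and the 10 barcodes richest in Lama5 held 1.76% of its UMIs.

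The endothelial-like barcodes (63 and 11) paired the same beta and gamma chains with another alpha chain, Lama4, at the highest chain levels of any class. Lama4, the alpha chain of vascular laminin 411 (chr10:38965515-39110188, plus strand), stood at 725 CPM (404 UMIs, 656 to 799.6) in KPCA.FSTKO and 1019 CPM (123 UMIs, 846.5 to 1215) in KPCA.FSTKO_hFSTL3. Lamb1 stood at 749 CPM (417 UMIs, 678.5 to 824) and 629 CPM (76 UMIs, 496 to 788). Lamc1 stood at 548 CPM (305 UMIs, 488 to 613) and 704 CPM (85 UMIs, 562 to 870.3). Lama4 took 85.4% (81.9 to 88.5) of the alpha chain UMIs of this class in KPCA.FSTKO, and Lamb1 took 96.8% of the beta chain UMIs. The remaining alpha UMIs were split between Lama5 and Lama3, each at 61.04 CPM (34 UMIs, 42.3 to 85.3). Lama3 (chr18:12333819-12583013, plus strand) is known as an epithelial chain, and its level here was 30.4 times that of the other gated barcodes. The endothelial-like barcodes held no UMI of Lamb3, which allows up to 5.39 CPM, so the Lama3 transcripts of this class were without the beta chain known as their partner in epithelia. The 16 barcodes with a Lama3 UMI had Lama4 at 697 CPM, and the 47 without one had it at 737.5 CPM. Lama4 UMIs were uneven within the class, since the 10 richest barcodes held 57.2% of them.

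**Figure D1:**
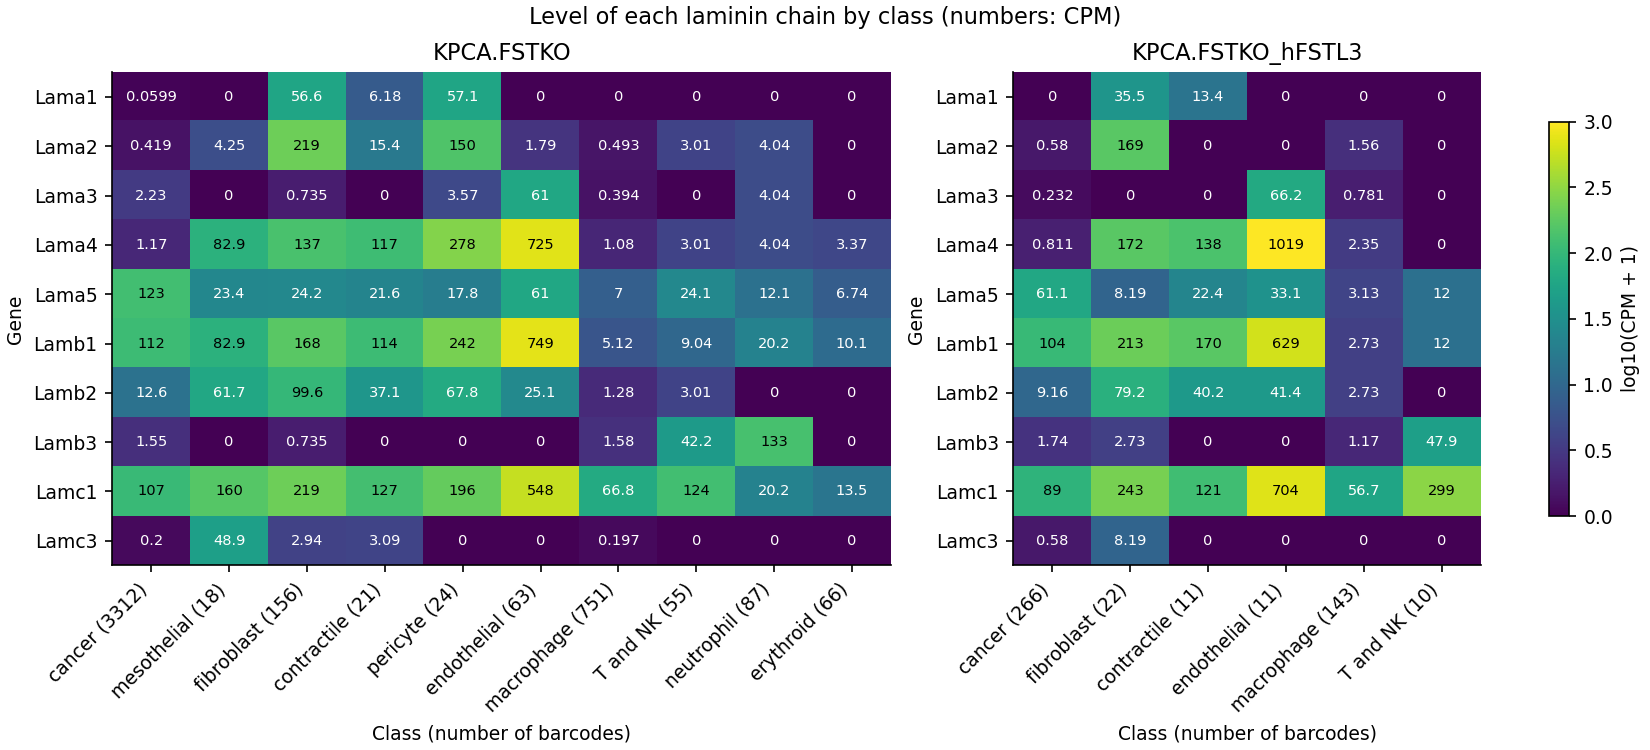
Level of each laminin chain, Lamc3 included, in each marker-gated class of the 2 libraries, in CPM on a log colour scale, with the value written in each cell. Lama5 is highest in the cancer class (123 CPM in KPCA.FSTKO), Lama4 in the endothelial class (725 CPM), and Lama2 in the fibroblast class (219 CPM). Class names leave out "-like".

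The fibroblast-like barcodes (156 and 22) were the class with the widest set of alpha chains. Lama2, the alpha chain of laminins 211 and 221 (chr10:26980036-27619758, minus strand), stood at 219 CPM (595 UMIs, 201.4 to 237) in KPCA.FSTKO and 169 CPM (62 UMIs, 129.8 to 217) in KPCA.FSTKO_hFSTL3. Lama4 stood at 137 CPM (373 UMIs, 123.5 to 152) and 172 CPM (63 UMIs, 132 to 220.0). Lama1, the alpha chain of embryonic laminin 111 (chr17:67697259-67822647, plus strand), stood at 56.6 CPM (154 UMIs, 48.0 to 66.3) and 35.5 CPM (13 UMIs, 18.9 to 60.7). Of the alpha chain UMIs in KPCA.FSTKO, Lama2 took 50% (47.1 to 52.9), Lama4 31.3%, Lama1 12.9% and Lama5 5.55%. Lamb2, the beta chain of laminins 221 and 421 (chr9:108479736-108490530, plus strand), reached 99.6 CPM (271 UMIs, 88.1 to 112), its highest level in any class, and took 37.2% of the beta UMIs beside 62.6% for Lamb1. Lamc1 was at 219 CPM (596 UMIs, 202 to 237).

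The promoters of Lama5, which led the alpha chains of the cancer-like class, and of Lamb1 are shown beside that of Lama2. Lama2 had 42 UMIs in the cancer-like class of KPCA.FSTKO and led the alpha chain UMIs of its fibroblast-like class. Lamb1 led the beta chains of both classes, at 112 CPM in the cancer-like and 168 CPM in the fibroblast-like class, so the windows are no contrast between these classes. Each is the 250 bases before a gene start in RefSeq on GRCm38.p6, written 5′ to 3′ on the strand of the gene. Windows were taken for 5 of the 9 chains. Capitals mark matches on either strand to the GC box letters GGGCGG and to the CCAAT letters.
Lama5, chr2:180225860-180226109, minus strand: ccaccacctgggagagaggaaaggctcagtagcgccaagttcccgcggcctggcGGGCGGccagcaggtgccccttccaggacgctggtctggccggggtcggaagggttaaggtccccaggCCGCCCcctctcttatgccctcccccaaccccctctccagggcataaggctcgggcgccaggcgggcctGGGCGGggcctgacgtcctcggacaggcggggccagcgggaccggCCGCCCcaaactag
Lamb1, chr12:31265043-31265292, plus strand: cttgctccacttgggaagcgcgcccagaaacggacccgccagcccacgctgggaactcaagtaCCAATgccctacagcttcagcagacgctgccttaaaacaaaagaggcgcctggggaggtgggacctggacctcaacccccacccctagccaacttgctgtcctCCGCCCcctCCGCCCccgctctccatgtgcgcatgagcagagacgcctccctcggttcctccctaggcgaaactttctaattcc
Lama2, chr10:27616943-27617192, minus strand: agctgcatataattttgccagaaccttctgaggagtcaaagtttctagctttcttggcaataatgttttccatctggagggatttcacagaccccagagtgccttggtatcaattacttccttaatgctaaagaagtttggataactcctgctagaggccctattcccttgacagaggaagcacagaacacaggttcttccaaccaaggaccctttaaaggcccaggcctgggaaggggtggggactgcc
The Lama5 window has 4 GC box matches and a GC content of 72.4%. The Lamb1 window has 2 GC box matches, 1 CCAAT match and 62.0%, and the Lama2 window neither motif and 47.2%. The windows of Lamb2 (43.6%) and Lamb3 (58.8% and 61.2%), which are not shown, also hold neither motif. Of 32851 mouse promoter windows, 32.7% hold the GC box letters and 33.9% the CCAAT letters, and the median GC content is 52.4%. The windows follow RefSeq starts, which can differ from the gene coordinates given in this report. The Lama5 window lies directly beside its gene. The Lama2 window lies inside its gene, and the end of the Lamb1 window overlaps its own. Of the windows not shown, that of Lamb2 overlaps its gene and those of Lamb3 lie inside theirs. A match is a description of these letters and not of a bound site.

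The 2 leading alpha chains of the fibroblast-like class were spread differently over its barcodes. Lama2 was found in 57 of 156 barcodes (36.5%) and Lama4 in 129 (82.7%), although Lama2 had more UMIs. One barcode alone held 51 Lama2 UMIs, and the 10 richest barcodes held 52.1% of the Lama2 UMIs, 50% of those of Lama1 and 22.0% of those of Lama4. Per barcode, Lama4 therefore led more often (65 barcodes) than Lama2 (37), with 12 led by Lama5, 9 by Lama1, 23 tied and 10 without any alpha chain UMI.

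The fibroblast-like barcodes with and without Lama2 were set side by side as a description, with no test, because the split is made on a laminin chain. The 57 barcodes with Lama2 had a median of 15980 UMIs and the 99 without it 18050, so the former were not the deeper ones. Lamc1 was at 389.7 CPM (351 to 432) with Lama2 and 128 CPM (112 to 146) without. Lamb1 was at 279.6 CPM (247 to 315) with and 108 CPM (93.3 to 124) without. Lama4 was at 183 CPM (157 to 213) with and 112.5 CPM (97.5 to 129) without. Lama1 was at 113 CPM with and 26.4 CPM without, and was found in 27 of 57 against 22 of 99 barcodes. Lama5 went the other way, at 11.7 CPM (5.82 to 20.9) with Lama2 and 31.0 CPM (23.3 to 40.3) without. The 46 barcodes with a Lama5 UMI had Lama2 at 26.0 CPM, against 318 CPM in the 110 without. In the 22 fibroblast-like barcodes of KPCA.FSTKO_hFSTL3, the 10 with Lama2 had Lamc1 at 439.6 CPM (332 to 571) and the 12 without had it at 138 CPM (95.1 to 194). There the interval of Lama4 with Lama2 (139.7 to 308) overlapped that without (105.5 to 209).

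The mural and mesothelial-like classes were small, and their chains followed Lama4 as well. The 24 pericyte-like barcodes of KPCA.FSTKO had Lama4 at 278 CPM (78 UMIs, 219.9 to 347), Lama2 at 149.8 CPM (42 UMIs, 108 to 202.5) and Lamb1 at 242.5 CPM (68 UMIs, 188 to 307). The 16 Lama1 UMIs of this class all came from 1 barcode, so its 57.1 CPM describe that barcode and not the class. Lama4 took 54.9% and Lama2 29.6% of the alpha UMIs of the pericyte-like class, with Lamc1 at 196 CPM (55 UMIs, 148 to 255). The 21 contractile barcodes, gated on smooth muscle genes, had Lama4 at 117 CPM (38 UMIs, 83.1 to 161), Lamb1 at 114 CPM (37 UMIs) and Lamc1 at 127 CPM (41 UMIs). The 18 mesothelial-like barcodes had Lamb1 at 82.9 CPM (39 UMIs, 59.0 to 113) and Lamb2 at 61.7 CPM (29 UMIs, 41.3 to 88.6), whose intervals overlap, and Lama4 took 75% of their alpha UMIs. Lamc3, a rarely used gamma chain outside the 9 genes, was at 48.9 CPM (23 UMIs in 9 barcodes) in the mesothelial-like class of KPCA.FSTKO and at 75.9 CPM (19 UMIs) in the 8 such barcodes of KPCA.FSTKO_hFSTL3. These mesothelial-like barcodes had a median of 4 cancer markers with a UMI beside 6 of their own, the contractile ones 4 fibroblast markers beside 5, and the pericyte-like ones 6 contractile markers beside 8, so all 3 classes lie close to a neighbour.

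**Figure D2:**
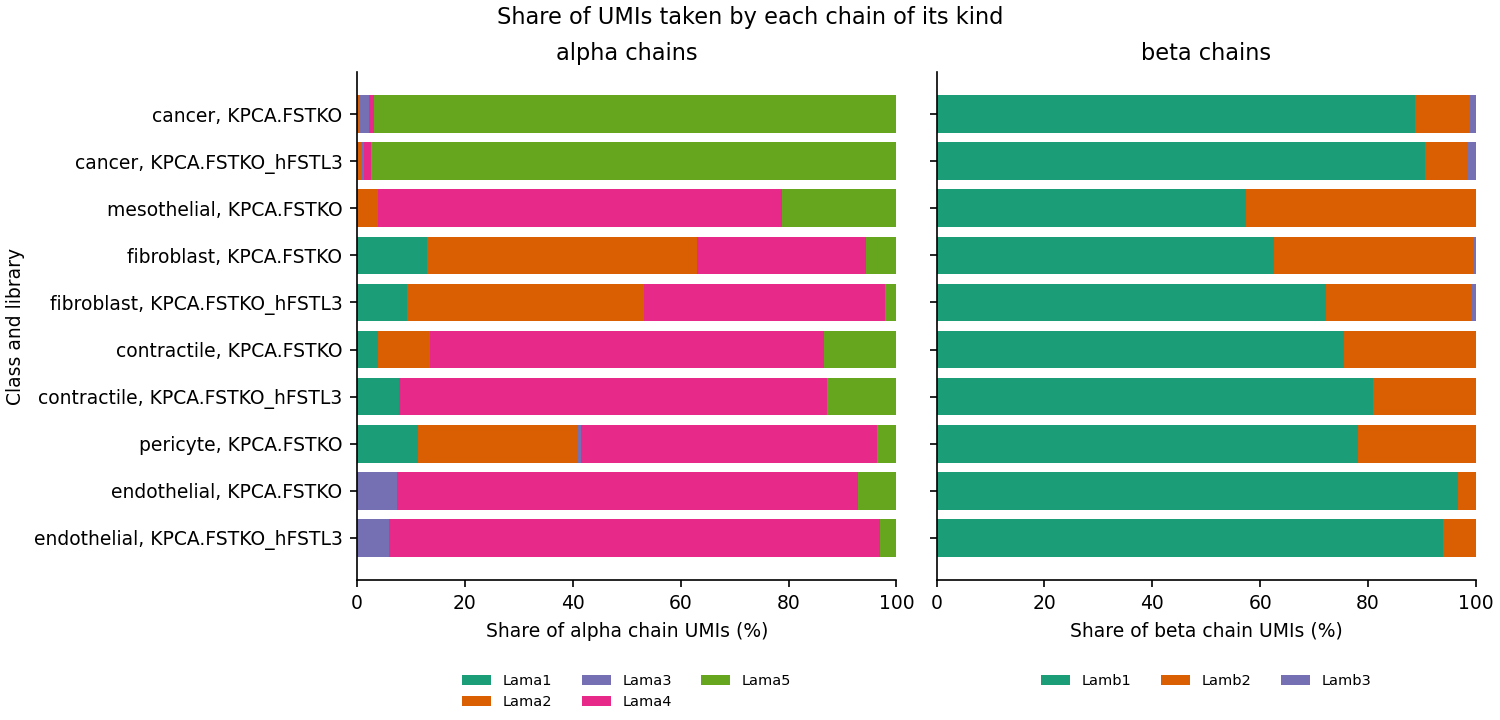
Share of the alpha and of the beta chain UMIs of each class that each chain took, in percent, for the classes of the 2 libraries. The alpha bars change from Lama5 in the cancer class (96.9% in KPCA.FSTKO) to Lama4 in the endothelial class (85.4%) and to a mix in the fibroblast class (Lama2 50% in KPCA.FSTKO, and 44.0% beside 44.7% for Lama4 in KPCA.FSTKO_hFSTL3), while Lamb1 leads the beta bars of every class drawn. Class names leave out "-like".

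Macrophage-like barcodes (751 and 143) stood out in having the gamma chain nearly alone. Lamc1 was at 66.8 CPM (678 UMIs in 346 barcodes, 61.9 to 72.0) in KPCA.FSTKO and 56.7 CPM (145 UMIs, 47.8 to 66.7) in KPCA.FSTKO_hFSTL3. Lama5 was at 6.997 CPM (71 UMIs) and 3.13 CPM (8 UMIs), and Lamb1 at 5.12 CPM (52 UMIs) and 2.73 CPM (7 UMIs). The UMI ratio of Lamc1 to Lamb1 was 13.0 (9.83 to 17.6) in this class, against 0.953 (0.928 to 0.979) in the cancer-like class of the same library. The erythroid-like barcodes, which should lack laminins, had Lamc1 at 13.5 CPM (4 UMIs), Lamb1 at 10.1 CPM (3 UMIs) and Lama5 at 6.74 CPM (2 UMIs), so the Lama5 and Lamb1 levels of the macrophage-like class do not exceed that background. T and NK-like barcodes (55 and 10) also had Lamc1 as their leading chain, at 124 CPM (41 UMIs in 19 barcodes, 88.7 to 168) in KPCA.FSTKO and 299 CPM (25 UMIs, 194 to 442) in KPCA.FSTKO_hFSTL3, with 8 UMIs of Lama5 and 3 of Lamb1 in KPCA.FSTKO.

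Lamb3, a beta chain known from epithelia (chr1:193207699-193343878, plus strand), was the one chain with its highest levels in blood cells. The 87 neutrophil-like barcodes of KPCA.FSTKO had it at 133 CPM (33 UMIs in 27 barcodes, 91.7 to 187), and no barcode of KPCA.FSTKO_hFSTL3 was gated to that class. T and NK-like barcodes had it at 42.2 CPM (14 UMIs, 23.1 to 70.8) and 47.9 CPM (4 UMIs, 13.0 to 123). In the cancer-like class it was at 1.55 CPM (155 UMIs, 1.31 to 1.81) and 1.74 CPM (15 UMIs). The annotated gene overlaps G0s2 and Hsd11b1, which lie on the opposite strand. Neutrophil-like barcodes with a G0s2 UMI had Lamb3 at 147 CPM (24 UMIs in 56 barcodes), and those without had it at 106 CPM (9 UMIs in 31 barcodes). G0s2 is itself a marker of the neutrophil-like gate, and this difference between small counts was not tested. The T and NK-like barcodes of KPCA.FSTKO had their 14 Lamb3 UMIs with no UMI of G0s2, and their Lamb3 level was 52.6 CPM in the 13 barcodes with an Hsd11b1 UMI and 39.1 CPM in the 42 without.

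Set in order of level in KPCA.FSTKO among classes of more than 10 barcodes, the intervals separate some neighbours and not others. For Lama4 the order was endothelial, pericyte, fibroblast, contractile and mesothelial, and the contractile interval overlaps those of fibroblast and mesothelial, which do not overlap each other. For Lamb1 it was endothelial (749 CPM), pericyte (242.5 CPM) and fibroblast (168 CPM, 152.5 to 184), whose intervals do not overlap each other. Contractile (80.5 to 158), cancer and mesothelial followed, and from fibroblast on the intervals of neighbours overlap. For Lamc1 it was endothelial (548 CPM), then fibroblast (219 CPM), pericyte (196 CPM) and mesothelial (159.5 CPM), of which each interval overlaps that of the next. Lama5 was ordered cancer (123 CPM) and endothelial (61.04 CPM), which do not overlap, and then fibroblast (24.2 CPM, 18.8 to 30.9), T and NK (24.1 CPM, 8 UMIs), mesothelial (23.4 CPM, 11.7 to 41.85) and contractile, where they do.

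Within the cancer-like class a small number of barcodes carried Lama3 and Lamb3 together. Lama3 was found in 96 of 3312 barcodes of KPCA.FSTKO (223 UMIs, 2.23 CPM), with 24 UMIs in 1 barcode and 48.0% of its UMIs in the 10 richest. Lamb3 was found in 15 of the 96 barcodes with Lama3 (15.6%) and in 81 of the 3216 without (2.52%), at levels of 15.8 CPM (11.8 to 20.6) and 1.05 CPM. The barcodes with Lama3 were deeper (median 34890 UMIs against 28250), and its part in the shares found was not tested. The chains of laminin 511 did not rise with Lama3, as Lama5 was at 125 CPM with and 123 CPM without, Lamb1 at 101 and 112 CPM, and Lamc1 at 91.1 and 107 CPM. The 96 barcodes with Lamb3 gave the same picture from the other side, with Lama3 at 33.1 CPM against 1.09 CPM. In KPCA.FSTKO_hFSTL3 only 2 cancer-like barcodes had a Lama3 UMI, so that split could not be repeated there, and the 11 with a Lamb3 UMI had no Lama3 UMI (interval 0 to 5.47 CPM). The comparison is a description, since the chain that splits the barcodes is itself a laminin.

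**Figure D3:**
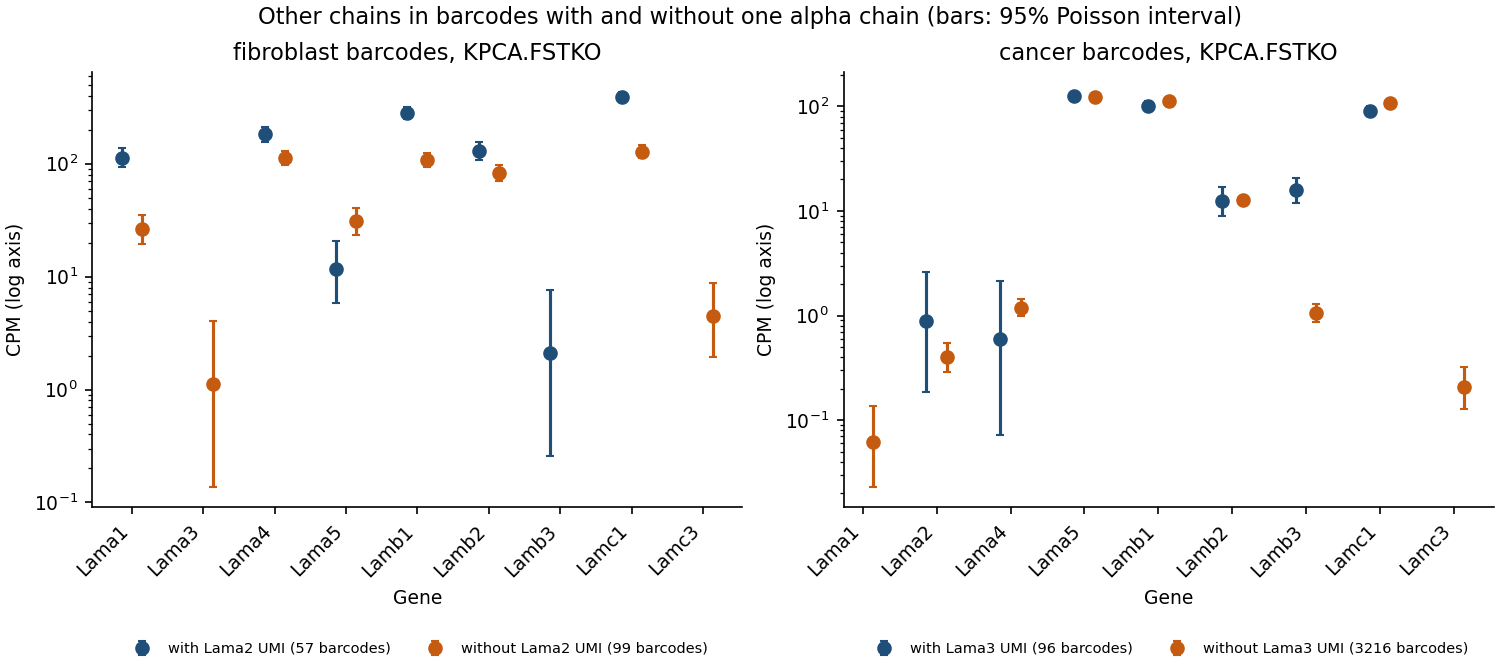
Level in CPM of the other laminin chains in barcodes of KPCA.FSTKO with and without a given chain, on a log axis, with bars for the 95% counting interval. Fibroblast-like barcodes with Lama2 have more Lamc1 (389.7 against 128 CPM) and less Lama5 (11.7 against 31.0 CPM), and cancer-like barcodes with Lama3 have more Lamb3 (15.8 against 1.05 CPM). Chains without a UMI in a group are not drawn.

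How often the 3 kinds of chain were found in the same barcode was counted after each barcode was thinned to 5000 UMIs, because deeper barcodes show more chains. In KPCA.FSTKO at least 1 alpha chain, 1 beta chain and Lamc1 were found together in 70.6% of endothelial-like barcodes (52.5 to 84.9, 34 barcodes after 29 shallower ones were left out). The share was 57.1% of pericyte-like barcodes (34.0 to 78.2, 21 barcodes), 34.9% of fibroblast-like barcodes (27.3 to 43.0, 152 barcodes) and 10.6% of cancer-like barcodes (9.52 to 11.7, 3131 barcodes). It was 17.6% in both the mesothelial-like and the contractile class (3.80 to 43.4, 17 barcodes each). In the background, 0 of 697 macrophage-like barcodes (up to 0.528%) and 0 of 22 erythroid-like barcodes (up to 15.4%) had all 3 kinds. Median depths before thinning were 6190 UMIs in the endothelial-like class, 17105.5 in the fibroblast-like class, 28344.5 in the cancer-like class, 12881 in the macrophage-like class and 4322.5 in the erythroid-like class. Without thinning the share was 69.3% in the cancer-like class, 76.9% in the fibroblast-like class and 0.666% in the macrophage-like class. At equal depth the endothelial-like share was above those of the fibroblast-like, mesothelial-like, contractile and cancer-like classes without overlap of the intervals, and the pericyte-like interval overlaps all of these but the cancer-like one.

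The sets found together followed the alpha chains. Lama4, Lamb1 and Lamc1, the chains of laminin 411, were together in 67.6% of thinned endothelial-like, 38.1% of pericyte-like and 19.1% of fibroblast-like barcodes. Lama2, Lamb1 and Lamc1, the chains of laminin 211, were together in 23.8% of pericyte-like and 20.4% of fibroblast-like barcodes, and 19.1% of the latter had both Lama2 and Lama4. Lama5, Lamb1 and Lamc1 were together in 9.49% of cancer-like barcodes. Lamc1 without any alpha or beta chain was found in 22.5% of thinned macrophage-like barcodes of KPCA.FSTKO and 22.1% of those of KPCA.FSTKO_hFSTL3, against 10.1% and 11.1% of cancer-like barcodes and 0 of 22 erythroid-like ones. It was also found in 35.3% of the 17 mesothelial-like barcodes (14.2 to 61.7) and in 4 of 26 T and NK-like ones (15.4%, 4.36 to 34.9). An alpha chain was found in 4.30% of macrophage-like barcodes and in 3 of 22 erythroid-like ones (13.6%), so the former is at the background. In KPCA.FSTKO_hFSTL3 all 3 kinds were together in 3 of 199 cancer-like barcodes (1.51%, 0.312 to 4.34) and in 57.9% of 19 fibroblast-like ones.

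**Figure D4:**
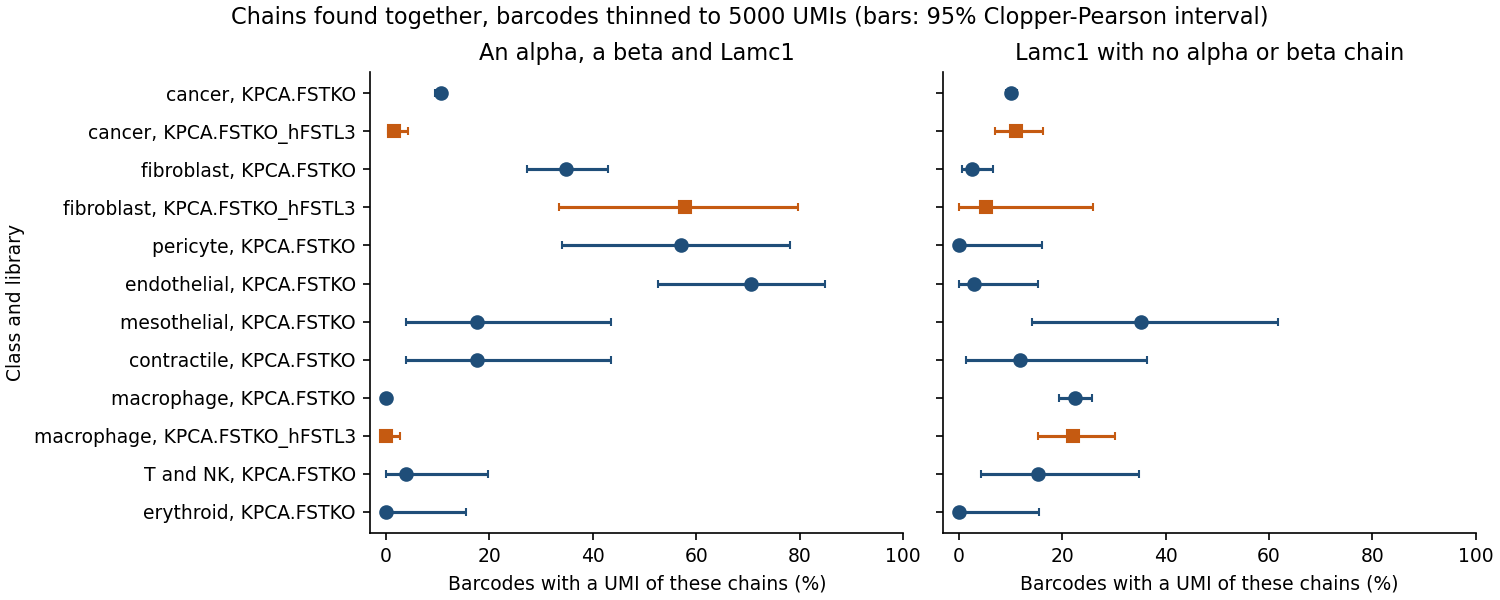
Percent of barcodes thinned to 5000 UMIs with an alpha chain, a beta chain and Lamc1 together, and with Lamc1 alone, by class and library, with 95% Clopper-Pearson intervals. All 3 kinds are together in 70.6% of endothelial, 34.9% of fibroblast and 10.6% of cancer barcodes of KPCA.FSTKO and in none of the macrophage barcodes, in which Lamc1 alone is found in 22.5%. Class names leave out "-like".

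Each class was also set against all other gated barcodes of KPCA.FSTKO, with a gene counted as higher at a CPM ratio of at least 2 and 50 or more UMIs in all. Of the 15025 genes with enough UMIs, which include all 9 chains, 18.0% were higher in the endothelial-like class, and 4 of the 9 chains were (Lama3, Lama4, Lamb1 and Lamc1). Lama4 was 127 times and Lamb1 7.25 times the level of the other barcodes there. In the fibroblast-like class 5 of 9 chains were higher (Lama1, Lama2, Lama4, Lamb2 and Lamc1) beside 15.0% of all genes, with Lama2 at 249 times and Lamb2 at 8.32 times. Lama1 reached 50 UMIs through this class alone (154 UMIs, against 24 in the other barcodes). In the pericyte-like class it was 5 of 9 (Lama1, Lama2, Lama4, Lamb1 and Lamb2) beside 16.8% of genes, of which Lama1 rests on 1 barcode, and Lama4 was at 32.5 times. In the contractile class it was 4 of 9 beside 15.1%, of which Lama1 and Lama2 rest on 2 and 5 UMIs and Lama4 was at 13.2 times. In the mesothelial-like class it was 2 of 9 beside 14.6%, Lama4 at 9.32 times and Lamb2 at 4.46 times. In the cancer-like class it was 1 of 9 beside 21.1% of genes, namely Lama5 at 9.12 times (7.95 to 10.5). In the macrophage-like class it was none beside 16.1% of genes, and 7 chains were lower beside 5211 of the 15025 genes. The ratios of a small class rest on a comparison group that is mostly cancer-like barcodes.

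Between the libraries the chains of laminin 511 moved by different amounts in the cancer-like class. Lama5 was lower in KPCA.FSTKO_hFSTL3 by a CPM ratio of 0.497 (0.455 to 0.542), whereas Lamb1 had a ratio of 0.931 (0.869 to 0.996), Lamc1 of 0.834 (0.774 to 0.898) and Lamb2 of 0.726 (0.571 to 0.912). Lama3 had 2 UMIs against 223, a ratio of 0.104 (0.0125 to 0.380). By the rule of a ratio of at least 2 in either direction, 13.0% of 14029 genes differed in the cancer-like class. Of these 656 were higher and 1166 lower. Of the 7 chains with enough UMIs, 2 differed (Lama3 and Lama5, both lower). Lama3 reached 50 UMIs through KPCA.FSTKO alone, the library where it was higher, so its place in this count is not independent of that filter. Lama5 lies on the edge of that rule, at a log2 ratio of -1.01, and it misses the rule at -0.92 without barcodes above the median acinar share, at -0.95 with 6 of 8 markers required, at -0.95 with markers counted at 2 UMIs, at -0.98 with a mitochondrial share under 10%, at -0.97 with no filter and at -0.99 with median of ratios scaling. Split by how many of the 8 cancer markers a barcode had, Lama5 was at 129.5, 132, 125 and 115 CPM for 5, 6, 7 and 8 markers in KPCA.FSTKO, while the 4 levels of KPCA.FSTKO_hFSTL3 were 35.9, 67.7, 57.4 and 66.9 CPM, so it was lower at each number of markers. Lamb1 and Lamc1 were lower in KPCA.FSTKO_hFSTL3 with 5, 6 and 7 markers but higher with 8. With 8 markers Lamb1 was at 112.5 CPM there against 97.4 CPM, and Lamc1 at 108.6 against 89.6 CPM. With 5 markers Lamb1 was at 62.1 against 126 CPM and Lamc1 at 24.8 against 134 CPM. Only 266 of the 4041 filtered barcodes of KPCA.FSTKO_hFSTL3 entered this class. When the barcodes with markers of several classes were given to the class with most markers, the log2 ratio of Lama5 was -1.33, and that of Lamb1 moved from -0.10 to -0.74 and that of Lamc1 from -0.26 to -0.87, so that Lama5 no longer stood apart from its partners to the same degree. Within the barcodes with markers of several classes, the CPM ratio was 0.518 for Lama5, 0.463 for Lamb1 and 0.396 for Lamc1.

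In the other classes few chains had enough UMIs to compare. Lama4 in the endothelial-like class had a ratio of 1.40 (1.14 to 1.72), Lamb1 of 0.841 (0.649 to 1.08) and Lamc1 of 1.28 (0.999 to 1.64), and 0 of these 3 passed the rule beside 10.5% of 2703 genes. In the fibroblast-like class 1 of 7 chains passed the rule on size, Lama5, with 3 against 66 UMIs (ratio 0.338, interval 0.0679 to 1.03), beside 9.27% of 7289 genes. The interval of that ratio includes 1. Lama2 had a ratio of 0.774 (0.586 to 1.01) and Lama4 of 1.25 (0.945 to 1.64) in the same class. In the macrophage-like class 1 of 3 chains passed, Lama5, with 8 against 71 UMIs (ratio 0.447, 0.186 to 0.929), beside 4.91% of 9969 genes. Its level there is at that of the erythroid-like background, and its log2 ratio turned from -1.16 to 1.32 when barcodes with markers of several classes were included. The median log2 ratio over all genes was -0.02 in the cancer-like, 0.05 in the fibroblast-like, -0.02 in the endothelial-like and 0.11 in the macrophage-like class. TMM scaling would shift the log2 ratios by -0.09, -0.13, -0.15 and -0.16 in these classes, which is of the size of some ratios given above, such as that of Lamb1 in cancer-like barcodes.

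**Figure D5:**
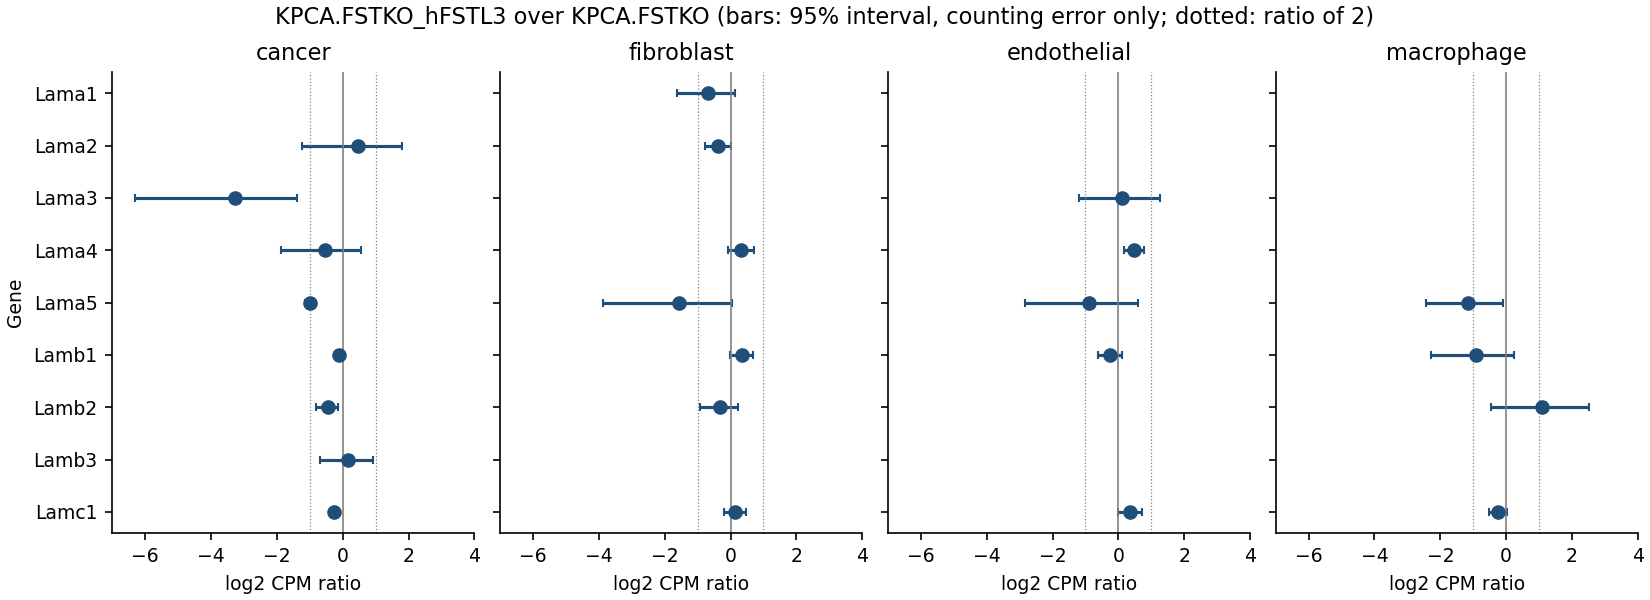
CPM of each laminin chain in KPCA.FSTKO_hFSTL3 over that in KPCA.FSTKO within a class, on a log2 axis, with 95% intervals of the ratio from the counts. In the cancer class Lama5 lies at 0.497 and Lamb1 and Lamc1 at 0.931 and 0.834, and in the endothelial class Lama4 lies at 1.40. Chains with few UMIs are not drawn. Class names leave out "-like".

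The other genes of the basement membrane were counted in the same way, against the pooled other barcodes. Of 10 partners (nidogens, type IV and XVIII collagens, perlecan, agrin, Sparc, fibulins), 8 were higher in the pericyte-like class of KPCA.FSTKO (beside 16.8% of all genes), 7 in the fibroblast-like class (15.0%), 7 in the contractile class (15.1%, with Col18a1 lower), 6 in the endothelial-like class (18.0%, with Fbln1 and Efemp2 lower) and 4 in the mesothelial-like class (14.6%). Genes lower numbered 5608 of 15025 in the contractile and 5061 in the endothelial-like class. In the macrophage-like class 0 partners were higher (16.1%) and 9 lower (beside 5211 of 15025 genes). In the cancer-like class 2 were higher (beside 21.1% of genes) and 5 lower (beside 3213 of 15025 genes). The 2 were Col18a1, at 259.9 CPM against 656 CPM in the pericyte-like and 355.5 CPM in the endothelial-like class, and Efemp2, at 101 CPM against 157 CPM in the fibroblast-like and 158 CPM in the contractile class. Nid1, the nidogen that binds the laminin gamma chain, was at 788 CPM in the pericyte-like, 585 CPM in the endothelial-like, 384 CPM in the fibroblast-like, 102 CPM in the cancer-like and 4.63 CPM in the macrophage-like class. Col4a1, the main type IV collagen chain, was at 4533 CPM in the pericyte-like, 4131 CPM in the endothelial-like and 55.6 CPM in the cancer-like class. In the cancer-like class it was therefore below Lamc1, at 107 CPM, and in the endothelial-like class above Lamc1, at 548 CPM.

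Of 11 laminin receptors, 3 were higher in the cancer-like class than in the pooled other barcodes (beside 21.1% of genes). Lower ones numbered 2 (beside 3213 of 15025 genes). The 3 higher were Itga3 (79.7 CPM) and Itgb4 (27.6 CPM), both subunits of epithelial laminin-binding integrins, and Sdc1 (119 CPM), a syndecan. Itga3 was at 93.3 CPM in the endothelial-like class (69.7 to 122), and Sdc1 at 190.0 CPM in the fibroblast-like and 232 CPM in the pericyte-like class, so the cancer-like class was not the highest for these. The endothelial-like class had 4 higher and 4 lower (18.0% of genes higher and 5061 of 15025 lower). Among the 4 higher were Itga6 at 684 CPM and Mcam, which binds laminin 411, at 528 CPM. The pericyte-like class had 5 higher and 3 lower (16.8% of genes higher and 5502 of 15025 lower). Among the 5 higher were Itga7, the integrin alpha chain known for binding laminin 211, at 96.3 CPM and Mcam at 549 CPM. The macrophage-like class had 0 higher (16.1%) and 6 lower (beside 5211 of 15025 genes). Between the libraries, 0 of 9 partners with enough UMIs and 1 of 11 receptors (Itga7, higher in KPCA.FSTKO_hFSTL3) passed the rule in the cancer-like class, beside 13.0% of genes. Itga7 was low in that class of both libraries, at 3.83 CPM (33 UMIs) in KPCA.FSTKO_hFSTL3 and 1.83 CPM (183 UMIs) in KPCA.FSTKO. In the fibroblast-like class 1 of 10 partners (Col18a1, lower) and 1 of 7 receptors (Sdc4, lower) did, beside 9.27%. In the endothelial-like class 0 of 7 partners and 0 of 5 receptors did, beside 10.5%. In the macrophage-like class it was 3 of 7 partners (Sparc higher, Nid1 and Col18a1 lower) and 1 of 7 receptors (Itga3, lower), beside 4.91%. The lower ones rest on few UMIs, with 5 against 47 for Nid1, 12 against 130 for Col18a1 and 5 against 50 for Itga3. Sparc was at 86.75 against 33.1 CPM there, and at 9285 CPM in fibroblast-like barcodes of KPCA.FSTKO_hFSTL3. The part of RNA from other cells was not tested.

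The genes with the most similar levels to a chain were ranked by Pearson's r of log2(CPM + 1) over 16 points, each a class in a library with at least 10 barcodes, among 13919 genes. The points share their libraries and several hold few barcodes, so r is a description without a test. Nearest to Lama5 were Cda (0.88), Chic1 (0.86) and Cpe (0.82), the lowest values for any chain. Nearest to Lama4 were Fbln5 (0.98), Fam13c (0.97) and Jam3 (0.97), and nearest to Lama3 were Depp1 (0.98), Limch1 (0.97) and Fam167b (0.95). Lamb1 was nearest to Ptprg (0.98), Hspg2 (0.98), which encodes perlecan, and Nfib (0.97), and Lamc1 to Zmym4 (0.94), Rtl8b (0.94) and Eogt (0.93). Genes close to Lama1 included Heyl (0.96) and Cygb (0.96), and Lama2 was nearest to Lin7a (0.96), Ms4a4d (0.95) and Kcnq3 (0.92). Every r of Lama1, with Lama2 too, includes a pericyte-like point whose Lama1 UMIs all came from 1 barcode. Lamb2 was nearest to Antxr1 (0.97), Tcaf1 (0.97) and Cdr2l (0.95), and Lamb3 to Mreg (0.97), Gm36723 (0.93) and Ipcef1 (0.92). Among the chains themselves, Lama1 and Lama2 had an r of 0.84, Lama4 and Lamb1 0.82, Lama4 and Lamb2 0.81, and Lama5 and Lamb1 0.65.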

How the data were processed

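Single cells of the 2 tumor pools were sequenced with 10x Genomics 3′ chemistry. The deposited files are whole-number UMI counts per gene and barcode, which the authors made with Cell Ranger against the mm10 mouse genome. The submitters' processing notes name version 3.1.0 and the matrix header 7.2.0, and version 7 by default also counts intronic reads. The files hold barcodes that the study's filters would remove, so barcodes with a mitochondrial share under 20% and more than 200 and fewer than 8000 genes were kept. No doublet step is named in the study's methods and doublets were kept. Scrublet called 93 barcodes (1.23%) of KPCA.FSTKO. It called 0 of KPCA.FSTKO_hFSTL3, so doublets were not assessed there. Of 96 markers of 12 classes, 95 are in the files. The gate's cutoffs were set on marker counts, and the chains, gene lists and tests were chosen with earlier results of these data known. For each library, the UMIs of a chain over the barcodes of a class were taken as a proportion of the total of those barcodes. The intervals are exact Poisson for CPM, exact conditional binomial for ratios and Clopper-Pearson for shares, and the limit for a count of 0 is 3 UMIs. Where both libraries or classes were compared, genes with at least 50 UMIs on both sides together were counted. A gene can therefore pass through its higher side alone. With 1 library per group no test across samples exists and none was run. In counts simulated from the cancer-like class (14029 genes, 200 changed 4-fold), the size rule found 100% of raised and 95% of lowered genes and called 1.43% of unchanged ones. The simulated counts varied by Poisson error alone, and the 4-fold change lies well past the rule of a ratio of 2. These rates therefore do not cover variation between cells or libraries and are no error rate for the data. The genes named in the text are the 9 chains, the fixed lists of partners and receptors, and the 3 genes most similar to each chain. A few items that fall under these rules or belong to the cell line are not reported here. Analyses used Python 3.11.15, numpy 2.4.6, scipy 1.17.1, scanpy 1.11.5 and, for TMM scaling as an alternative, edgeR 4.0.16.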

Additional observations from a re-analysis of the deposited data

Results flagged for a closer look

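Summed over each class, Lamc1 moved in opposite directions in the T and NK-like and cancer-like classes. Its CPM ratio of KPCA.FSTKO_hFSTL3 over KPCA.FSTKO was 2.42 (1.41 to 4.08) in the former and 0.834 (0.774 to 0.898) in the latter, and this difference was not tested, since each group has 1 library. The ratio in T and NK-like barcodes rests on 25 UMIs in 10 barcodes against 41 UMIs in 55. The cancer-like direction did not hold throughout that class. Its barcodes with all 8 cancer markers had Lamc1 at 108.6 CPM (97.2 to 120.9) in KPCA.FSTKO_hFSTL3 and 89.6 CPM (86.7 to 92.7) in KPCA.FSTKO.

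Barcodes that the gate left in no class, and that enter no comparison of the report, held laminin chains above the level of the erythroid-like barcodes of the same library. In KPCA.FSTKO these 1530 barcodes had Lama5 at 112 CPM (6.74 in the erythroid-like class), Lamb1 at 112.7 CPM (10.1) and Lamc1 at 136 CPM (13.5). They had Lama4 at 35.4 CPM (3.37) and Lamb2 at 23.9 CPM, where the erythroid-like class had 0 UMIs.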

How the results depend on the processing

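No paired analysis was possible because each group has 1 library. Leaving out the Scrublet doublets, which were called in KPCA.FSTKO alone, moved no level, share of its kind or log2 ratio of a chain beyond its counting interval. Scaling by TMM or by the median of ratios, run on the log2 ratios, moved none of these beyond it.

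The share of Lama5 among alpha UMIs of cancer-like barcodes moved from 96.9% to 95.5% in KPCA.FSTKO when barcodes with markers of several classes were given to the class with most markers and to 96.5% with no filter. In KPCA.FSTKO_hFSTL3 it moved from 97.4% to 72.2% with those barcodes, to 98.6% with 6 of 8 markers required and to 94.97% with markers counted at 2 UMIs. Lama4 in endothelial-like barcodes moved from 85.4% to 81.6% without the richest 5% of barcodes. Lama2 in fibroblast-like barcodes moved from 50% to 57.2% (6 of 8 markers), 42.8% (several classes assigned), 37.4% (richest 5% left out) and 46.3% (4 of 8 markers, an alternative chosen after seeing the data). Lama4 in pericyte-like barcodes moved from 54.9% to 73.2% without barcodes above the median acinar share.

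With several-class barcodes assigned, the log2 ratios in the cancer-like class were -1.33 for Lama5, -0.74 for Lamb1 and -0.87 for Lamc1, and Lama5 in macrophage-like barcodes reversed to 1.32. Lamc1 was at -0.14 with 6 of 8 markers and -0.43 without the richest 5% of barcodes. Genes past the size rule in the cancer-like, fibroblast-like, endothelial-like and macrophage-like classes numbered 1822, 676, 284 and 489. With 20 UMIs they numbered 2739, 1484, 1013 and 986, and at a ratio of 1.5 they numbered 3960, 1921, 867 and 1553.

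At 10000 UMIs the 3 kinds of chain were together in 29.7% of cancer-like and 55.1% of fibroblast-like barcodes of KPCA.FSTKO and in 14.7% of cancer-like barcodes of KPCA.FSTKO_hFSTL3. At the deposited depth these shares were 69.3%, 76.9% and 46.6%, and 0.666% in macrophage-like barcodes of KPCA.FSTKO. The cause of these moves was not tested.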
